A study of Drosophila melanogaster with 60 samples.

Results

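The genes gcm, gcm2 and repo were followed through every peak list of a chromatin immunoprecipitation and sequencing (ChIP-seq) series on Drosophila melanogaster embryos. The 3 genes were taken by name from the 13968 protein-coding genes of the annotation. Each was measured over a gene region that began 2 kb before the start and closed at the gene's end. A pair of measures was read in each list: whether a peak overlapped the region by at least 1 base, and the covered share, which is the percent of the region's bases that lay inside peaks.

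The genes gcm (glial cells missing) and gcm2 encode related zinc-binding transcription factors that start the glial programme in the embryonic nervous system and also act in blood cells of the macrophage type. The gene repo encodes a homeodomain protein that is made in nearly all lateral glia, where it drives terminal glial differentiation, and it is a direct target of Gcm. Ubx is a Hox transcription factor that sets segment identity. Polycomb complexes keep developmental genes silent and deposit trimethylation on lysine 27 of histone H3 (H3K27me3), and Pho is a DNA-binding protein that recruits them. Acetylation of the same lysine (H3K27ac) marks active promoters and enhancers, and 1 histone tail cannot carry both marks on that lysine.

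The series held 35 immunoprecipitates and 25 inputs, and the inputs were not used here. Nuclei were purified by INTACT, in which a tagged nuclear envelope made under a tissue-specific driver lets nuclei of that tissue be pulled out of whole embryos, and the small amounts of DNA were amplified with ThruPLEX. Early embryos were of stages 10 to 13 and late embryos of stages 14 to 17. Ubx was profiled with a guinea pig antibody in mesoderm of genotype twi-INTACT (3 early lists named R, R2 and S, and 2 late lists named R and S) and in neuronal nuclei of genotype elav>INTACT (2 early and 2 late lists, R and S). H3K27ac and H3K27me3 were profiled in twi-INTACT mesoderm, with 2 early lists (1 and 2) and 2 late lists (2 and 3) for each mark. Both marks and Pho were also profiled in late mesoderm of control embryos (twi-INTACT; UAS-Nslmb,GFP-Ubx, 3 lists) and of degradation embryos (twi-INTACT, Mef2>Nslmb,GFP-Ubx, 3 lists). Both of these genotypes carried the GFP-Ubx allele and the UAS-Nslmb transgene, which encodes a ubiquitin ligase adaptor that sends GFP-tagged proteins for degradation. The muscle driver Mef2 turned it on in the degradation embryos alone. The twi driver acts in the mesoderm and the elav driver mainly in neurons, so no group was selected for glia. Whether glia or blood cells were among the purified nuclei was not tested. No histone mark or Pho list from neuronal nuclei was analysed here, so neuronal markers could not be checked in those nuclei.

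The lists differed widely in extent. Covered length ran from 0.179 to 16.6 Mb over the 9 Ubx lists, from 11.9 to 18.5 Mb over the 6 Pho lists, from 1.01 to 26.9 Mb over the 10 H3K27ac lists and from 1 to 21.4 Mb over the 10 H3K27me3 lists. A peak list gives no read depth, so the depth behind each value is unknown, and an absent peak means that none was called. The mean H3K27ac covered share around the starts of 11 mesoderm and muscle markers was above that of 9 neuron markers in 10 of 10 lists, at 1.18 to 32.8% against 0 to 27.7%, but it was above the mean of all genes in only 3 of them. H3K27me3 covered the same mesoderm and muscle markers above the mean of all genes in 10 of 10 lists (3.63 to 36.4% against 0.420 to 9.33%) and the neuron markers in 6 of 10. In early mesoderm list 2 and late mesoderm list 3, just 1 of the 11 mesoderm markers had an H3K27ac peak at its start. Nothing in the labels says that replicates came from separate embryo collections, so p-values measure the spread between these lists, which may be technical. Inside the lists of early mesoderm Ubx R2 and of H3K27ac control 3 the peaks carried another replicate's name (S and R2).

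In the dm6 genome gcm (FBgn0014179) lies on the minus strand at chr2L:9579498-9581745 and gcm2 (FBgn0019809) on the plus strand at chr2L:9608562-9612706. The genes point away from each other and their starts are 26.8 kb apart, with the protein-coding genes CG3841 and CG4382 between them. The gene repo (FBgn0011701) lies on the plus strand at chr3R:18236192-18239602. The 3 gene regions measured 4248, 6145 and 5411 bases, against a median of 4164.5 bases over all genes. Positions below are counted in bases from a gene's own start along its strand, with upstream positions negative. Those between gcm and gcm2 are counted from the gcm start toward gcm2.

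The promoters, taken as the 250 bases before each start in the RefSeq copy of this assembly, show what the genes have in common at their starts and what they do not. They span chr2L:9581746-9581995 (minus strand), chr2L:9608312-9608561 and chr3R:18235942-18236191 and are written 5′ to 3′, with matches to the searched letters in capitals.
gcm promoter: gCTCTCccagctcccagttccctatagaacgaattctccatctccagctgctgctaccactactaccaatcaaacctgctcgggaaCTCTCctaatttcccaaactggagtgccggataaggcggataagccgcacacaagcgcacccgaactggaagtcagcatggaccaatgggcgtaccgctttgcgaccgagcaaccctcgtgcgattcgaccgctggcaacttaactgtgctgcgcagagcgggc
gcm2 promoter: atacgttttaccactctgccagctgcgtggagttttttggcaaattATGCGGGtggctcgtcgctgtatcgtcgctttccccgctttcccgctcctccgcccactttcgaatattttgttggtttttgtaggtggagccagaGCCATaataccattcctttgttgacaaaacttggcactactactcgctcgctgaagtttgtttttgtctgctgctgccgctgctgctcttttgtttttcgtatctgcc
repo promoter: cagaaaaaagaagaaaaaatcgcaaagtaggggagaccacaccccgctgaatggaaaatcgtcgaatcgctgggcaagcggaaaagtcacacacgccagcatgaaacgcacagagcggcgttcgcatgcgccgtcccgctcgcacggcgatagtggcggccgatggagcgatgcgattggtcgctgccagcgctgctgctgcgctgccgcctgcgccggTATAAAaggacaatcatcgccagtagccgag
The letters were ATGCGGG for Gcm, TTAAT for homeodomain proteins, GCCAT for Pho, GAGAG for GAGA factor and TATAAA for a TATA box, on both strands, the last added after the sequences had been seen. No kind of match was shared by any pair of these promoters. The gcm promoter held 2 GAGAG matches, which 9.69% of all promoters of that length equalled or exceeded. The gcm2 promoter held 1 ATGCGGG match, found in 0.988% of all promoters, and 1 GCCAT match, found in 35.7%. The repo promoter held 1 TATAAA match, found in 43.0% of them. Over 2000 bases upstream, ATGCGGG occurred 0, 2 and 1 times at gcm, gcm2 and repo, and 12.1% of genes had at least 1 match there. None of the 3 promoters held TTAAT, which 65.6% of all promoters did.

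H3K27me3 was the mark that all 3 genes shared. A peak overlapped gcm, gcm2 and repo in every one of the 10 lists, which 592 of the 13968 genes did (4.24%). The covered share of gcm was 100 and 91.1% in the early mesoderm lists, 69.3 and 44.6% in late mesoderm, 100, 100 and 66.5% in the late controls and 100% in each of the 3 degradation lists. For gcm2 it was 81.1 and 93.6% early, 53.3 and 32.7% late, 98.3, 98.1 and 71.99% in the controls, and 98.3, 98.0 and 97.2% in the degradation lists. For repo it was 90.4 and 92.2% early, 31.4 and 28.0% late, 94.5, 100 and 67.6% in the controls, and 100, 100 and 89.4% in the degradation lists. Both late mesoderm lists and control list 3 were the low ones at each gene, and every other list covered more than 80% of each region.

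These covered shares were far above the share of the genome inside the same lists. The covered share was 6.42 to 61.3 times the genome's at gcm, 6.30 to 45.0 times at gcm2 and 5.56 to 38.5 times at repo, over the 10 lists. The largest ratio at each gene came from late mesoderm list 3, which covered 0.727% of the genome. In every list, at most 1.90% of all genes were covered as fully as gcm, at most 2.03% as fully as gcm2 and at most 1.90% as fully as repo.

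**Figure D1:**
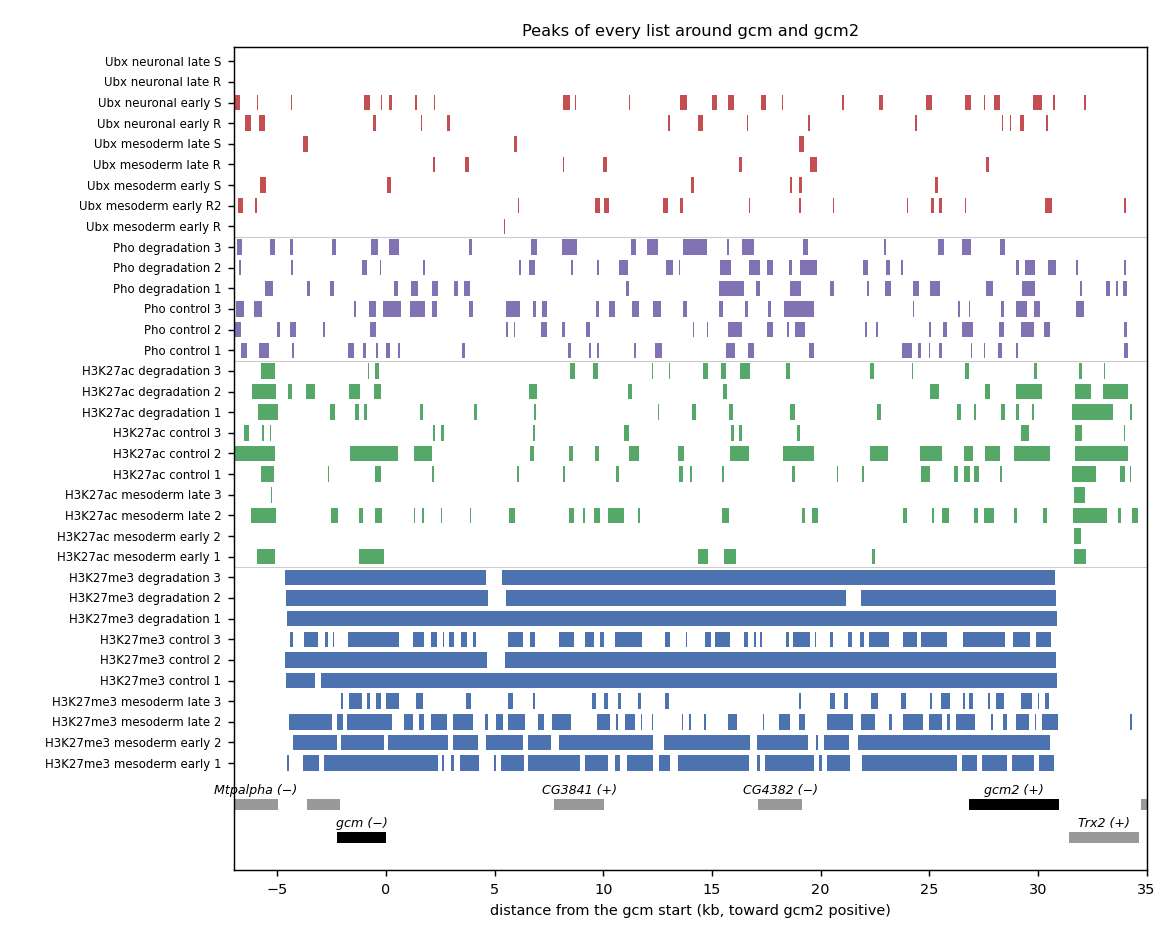
Peaks of all 35 lists (coloured bars, 1 row for each list, red for Ubx, purple for Pho, green for H3K27ac, blue for H3K27me3) by distance in kb from the gcm start, with protein-coding genes below (black for gcm and gcm2, grey for the rest, strand in brackets). H3K27me3 filled the stretch from just beyond gcm to just inside the end of gcm2 as 1 block, as 2 or 3 blocks or as many fragments, and H3K27ac peaks lay past it on the gcm side in 9 and on the gcm2 side in 10 of the 10 lists.

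At gcm and gcm2 the mark kept nearly the same outer edges in most lists, and the domain between them took in both genes and the intervening sequence. The outer edges were found by walking outward from each gene across gaps of up to 1 kb. On the side of gcm, 9 of 10 lists ended 4299 to 4651 bases beyond the gcm start, a range of 352 bases, and late mesoderm list 3 ended at 2065 bases. On the side of gcm2, all 10 lists ended 30528 to 30935 bases from the gcm start, a range of 407 bases. The span between the edges was 34.9 to 35.5 kb in the same 9 lists.

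The outline was alike between lists but the filling was not. In degradation list 1 a single peak of 35411 bases held the whole domain, and in control list 1 a peak of 33869 bases held most of it. Control list 2 and degradation list 3 had 2 peaks each, and degradation list 2 had 3. The early lists split the domain into 23 and 12 peaks that covered 80.7 and 90.0% of the span, those of late mesoderm into 36 and 28 peaks that covered 51.1 and 19.2%, and control list 3 into 36 peaks that covered 49.7%. The same genotype and stage therefore gave a nearly solid domain in control lists 1 and 2 (99.3 and 97.6% of the span) and a fragmented one in control list 3.

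The genes inside and outside the edges differed in the same lists. CG3841 and CG4382, which lie between gcm and gcm2, were covered by H3K27me3 over a median of 95.6 and 100% of their length, and CG31709, which overlaps the 3′ end of gcm, over a median of 87.8%. Trx2, a thioredoxin gene whose start is 31421 bases from that of gcm and just past the edge, had a median of 0% and a maximum of 3.18%. Mtpalpha, the next gene beyond CG31709 and chosen after its values were seen, had a median of 0% and a maximum of 8.86%. Peaks of both marks lay within 1 kb of these outer starts. The H3K27me3 domain ended before it reached either start in every list, and in most lists these windows took in its outer end. The window of 1 kb to either side of the Trx2 start held an H3K27ac peak in 10 of 10 lists and an H3K27me3 peak in 10 of 10, with median covered shares of 31.9 and 19.6%. That of Mtpalpha held each mark in 9 of 10 lists, with medians of 36.7 and 26.5%.

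**Figure D2:**
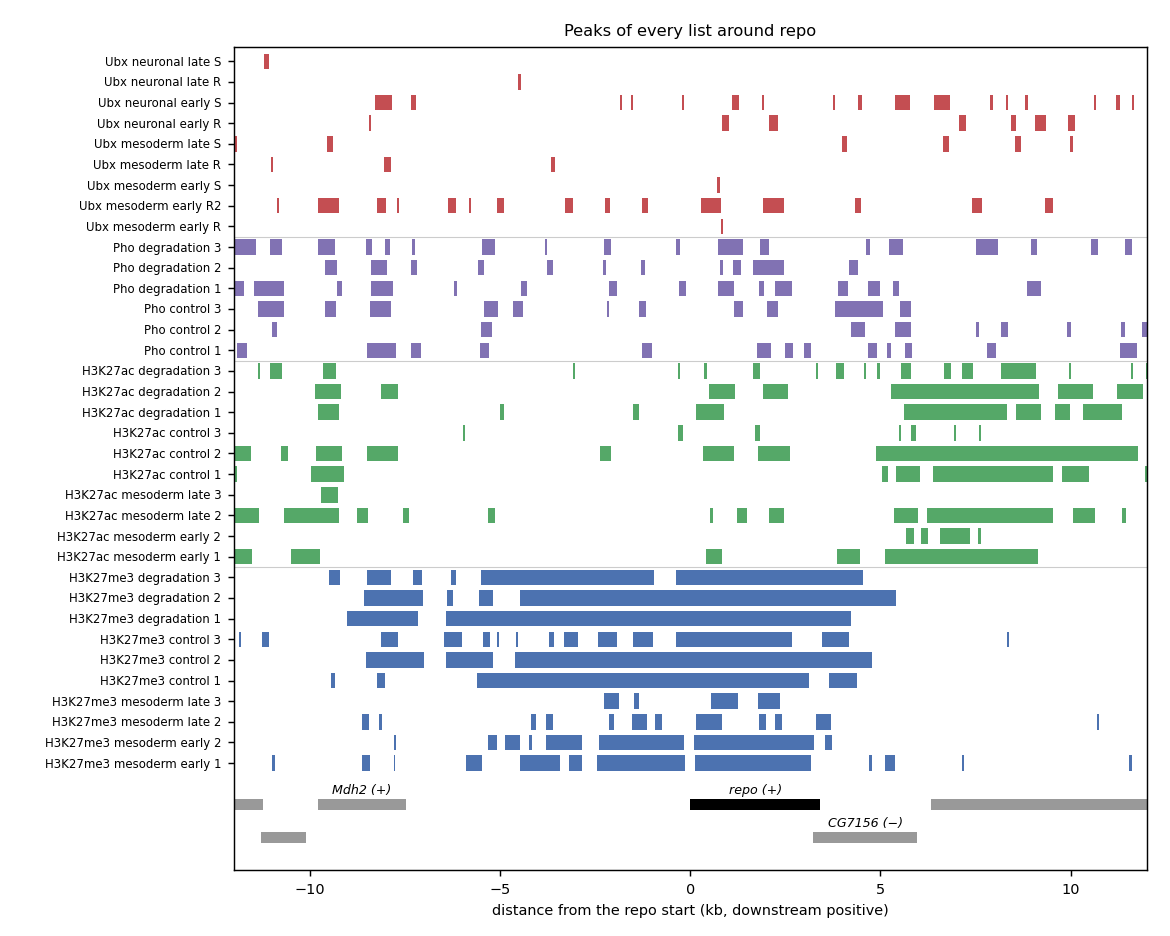
Peaks of all 35 lists by distance in kb from the repo start, with the colours and gene bars of the map around gcm. H3K27me3 extended upstream of repo by a length that differed between lists and stopped 2351 to 5412 bases downstream of the start, near or within CG7156.

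The domain at repo was smaller and its upstream edge less fixed. Downstream it ended 2351 to 5412 bases from the repo start. Upstream it reached 8526 bases or more in 4 lists (control list 2 and the 3 degradation lists), 2144 to 6481 bases in 5 lists, and in late mesoderm list 3 the upstream reach was -553 bases, inside the gene. The span was 1.80 to 14.0 kb. The neighbours Mdh2, a malate dehydrogenase gene upstream, and CG7156, which overlaps the 3′ end of repo, were covered over a median of 15.9 and 26.4% of their length and at most 66.7 and 79.7%. Around the CG7156 start an H3K27ac peak was present in 9 of 10 lists and an H3K27me3 peak in 2 of 10.

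H3K27ac at the 3 genes varied from list to list. Each gene region had an H3K27ac peak in 7 of 10 lists, and 69.5% of all genes had one in at least 7. At gcm the covered share was 27.2 and 0% early, 16.3 and 0% late, 6.31, 69.1 and 0% in the controls, and 11.4, 18.7 and 6.38% in the degradation lists. At gcm2 it was 0 and 0% early, 23.1 and 0% late, 15.2, 57.1 and 6.10% in the controls, and 11.4, 30.6 and 5.27% in the degradation lists. At repo it was 7.76 and 0% early, 13.6 and 0% late, 0, 30.8 and 4.88% in the controls, and 16.7, 24.4 and 7.19% in the degradation lists. Control list 2, which covered the most genome of any H3K27ac list, was the highest at all 3 genes. The median ratio to the genome's share was 0.901 at gcm, 1.13 at gcm2 and 0.8602 at repo.

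H3K27ac on these genes was set against H3K27me3 of the same replicate number. In each control and degradation replicate with any H3K27ac at a gene, 100% of those acetylated bases were inside H3K27me3. That follows in large part from H3K27me3, which covered 89.4% or more of each region in these replicates except control 3. In late mesoderm replicate 2, where H3K27me3 covered 69.3, 53.3 and 31.4% of gcm, gcm2 and repo, the share was 92.2, 42.3 and 38.1%. These are bulk nuclei, and nuclei that carry different marks cannot be told apart from mixed marks in the same nuclei. In the same way, fewer marked nuclei and less of a mark per nucleus cannot be told apart in any comparison below.

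**Figure D3:**
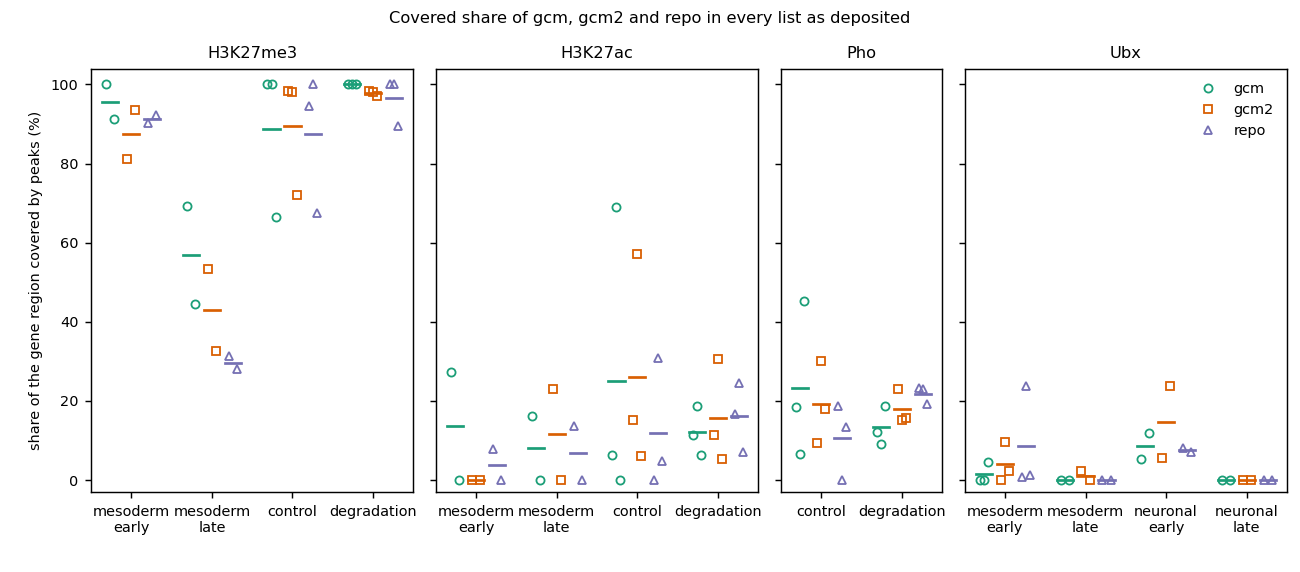
Covered share (percent of the gene region inside peaks) of gcm, gcm2 and repo in every list as deposited, by mark and group. Symbols are single lists and short lines are group means; H3K27me3 was above 80% in all early and degradation lists and at 69.3% or less in both late lists of twi-INTACT mesoderm, while the other marks stayed low or scattered.

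The first comparison asked how the marks differed between early and late mesoderm of the same genotype. H3K27me3 covered less of all 3 genes in both late lists than in either early list. To set lists of different extent side by side, the lowest-scored peaks of each were dropped until it covered no more than the shortest list of the comparison, 1 Mb here. After trimming, gcm was covered over 100 and 91.1% early against 9.60 and 44.6% late, gcm2 over 69.5 and 93.6% against 0 and 32.7%, and repo over 56.1 and 58.5% against 7.23 and 28.0%. The groups did not overlap at any of the 3 genes. In the other direction, 287 of the 2418 genes tested (11.9%) had late lists above the early ones, and 101 (4.18%) had them below, as these genes did.

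The late minus early difference was -68.5 points at gcm, -65.2 points at gcm2 and -39.7 points at repo, with 2 lists in each group. The limma adjusted p (Benjamini-Hochberg, over all genes tested) was 0.412 for each of the 3. No gene passed an adjusted p of 0.05 in either direction (0% called). Before adjustment, 43 genes fell below 0.05 with lower and 38 with higher late values. In the lists as deposited the groups did not overlap either (8.82% of 11521 genes lower, 1.11% higher), and limma called 17 other genes lower (0.148%) and none of the 3. A difference as low as that of gcm was found in 7 of the 2418 genes, as low as that of gcm2 in 11 and as low as that of repo in 34. The median early mean over these 2418 genes was 0% after trimming. Genes with no early H3K27me3 could neither rank low nor have late lists below the early ones, so these ranks depend on the early level.

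The calls changed when single lists were left out. Without late mesoderm list 3, which sets the trimmed length, limma called 59 genes lower and 2942 higher, and repo passed at adjusted p = 0.0212. Without late list 2, 18 were called lower and 824 higher, with repo at adjusted p = 0.0478. Without early list 1, 19 genes were called lower and gcm2 passed at adjusted p = 0.0217, and without early list 2, 7 were called lower and gcm passed at adjusted p = 0.0143. Over all alternatives the adjusted p from limma ran from 0.0135 to 0.492 for gcm, 0.0138 to 0.751 for gcm2 and 0.0212 to 0.766 for repo, and all 3 differences stayed negative. The late controls, which are mesoderm of the same stages but of another genotype, covered 66.5% or more of each gene, above every late twi-INTACT value at gcm2 and repo and below the higher of them at gcm in control list 3. The genotype and the library set cannot be told apart in that contrast, and it was not tested.

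For H3K27ac the trimming to 1.01 Mb left none of the 3 genes with a peak in any of the 4 lists, so they did not enter the fit. Limma called 0 of 5543 genes (0% in each direction). Before adjustment, p was under 0.05 for 19 genes that were higher and 161 that were lower late, and the groups did not overlap at 3.7% (higher) and 9.04% (lower). As deposited, the late minus early difference was -5.46 points at gcm, 11.6 points at gcm2 and 2.94 points at repo, and the groups overlapped at all 3 (limma adjusted p = 1 for each), while 3.39% of genes were higher and 0.193% lower without overlap. Early list 2 and late list 3 had no H3K27ac peak at any of these genes, and these are the shorter lists of their groups. Without late list 2 limma called 2424 genes, 2414 of them higher late, and none of the 3 entered the fit.

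The second comparison asked what changed when Ubx was degraded under the muscle driver. H3K27me3 stayed over gcm, gcm2 and repo in all 3 degradation lists. The trimmed lists, at 8.58 Mb, gave the same covered shares as the deposited ones at these genes. The degradation mean was 11.2 points higher at gcm (100 ± 0% against 88.8 ± 19.3%, SD, n = 3 each), 8.36 points higher at gcm2 (97.8 ± 0.596% against 89.4 ± 15.1%) and 9.10 points higher at repo (96.5 ± 6.10% against 87.4 ± 17.3%). The limma adjusted p was 0.464, 0.587 and 0.464, and the groups overlapped at each gene. Control list 3 alone was low, and without it the differences were 0 points at gcm, -0.363 at gcm2 and -0.779 at repo. Of 8103 genes tested limma called none (0% in each direction), and before adjustment 29 higher and 175 lower genes were under 0.05. Groups that did not overlap made up 0.185% (higher) and 0.309% (lower) of genes.

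No difference in H3K27ac at the 3 genes exceeded the spread between lists. With the lists trimmed to 7.71 Mb the covered share was 6.31, 0 and 0% in the controls against 0, 6.87 and 1.20% in the degradation lists at gcm. It was 6.09, 0 and 6.10% against 5.19, 0 and 2.82% at gcm2, and 0, 0 and 4.88% against 0, 0 and 5.90% at repo. The differences were 0.588, -1.39 and 0.339 points (limma adjusted p = 1 for each), and the groups overlapped. Limma called 0 of 13377 genes (0% in each direction), against 76 higher and 28 lower before adjustment. Groups did not overlap at 0.897% (higher) and 0.501% (lower) of genes. Control list 2, high at all 3 genes as deposited, held none of their H3K27ac after trimming.

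Pho peaks lay on gcm and gcm2 in 6 of 6 lists and on repo in 5 of 6, and 69.5% of all genes had one in every list. As deposited, Pho covered 18.4, 6.57 and 45.2% of gcm in the controls and 12.1, 9.09 and 18.7% in the degradation lists. At gcm2 it covered 9.45, 30.1 and 17.9% against 23.0, 15.2 and 15.6%. At repo it covered 18.6, 0 and 13.4% against 23.2, 22.9 and 19.1%. The gene repo was thus the one whose control lists all fell below its degradation lists, although the highest control and the lowest degradation list were close. Without trimming, 2.62% of genes had degradation lists above all controls and 5.81% below.

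With the lists trimmed to 11.9 Mb, repo was covered over 18.6, 0 and 3.49% in the controls and over 23.2, 22.9 and 19.1% in the degradation lists. The difference was 14.4 points (limma adjusted p = 0.926). Degradation lists lay above all controls at 829 of the 13746 genes tested (6.03%) and below them at 498 (3.62%), and 2.51% of genes had a difference at least as high as that of repo. The differences at gcm and gcm2 were 5.89 and 2.77 points (limma adjusted p = 0.986 and 0.994), and their groups overlapped. Limma called 0 genes (0% in each direction), against 437 higher and 282 lower at p under 0.05 before adjustment. At repo the difference kept its sign under all 12 alternatives, from adjusted p = 0.603 to 1.

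**Figure D4:**
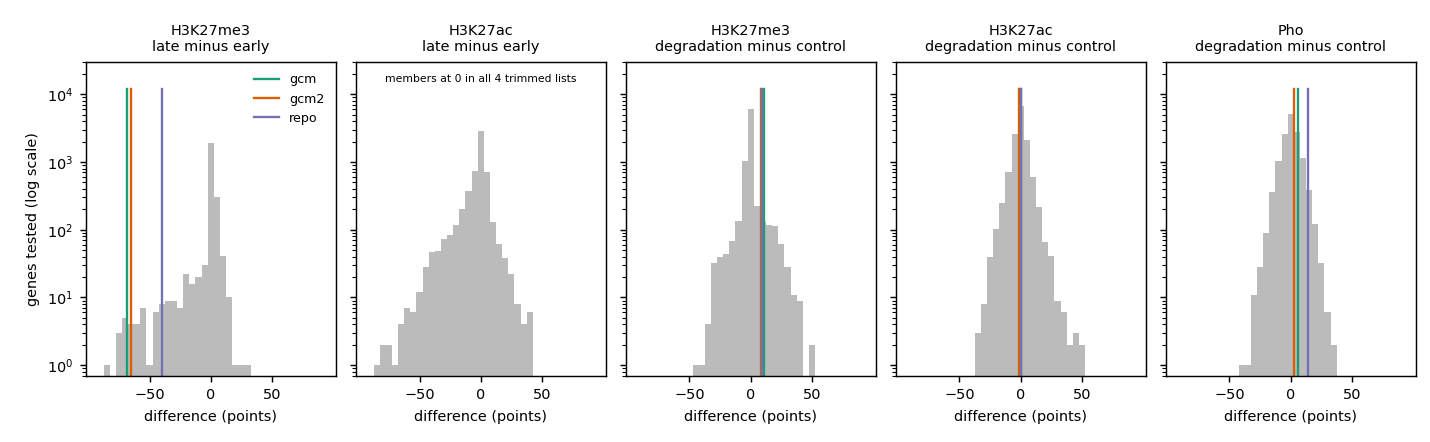
Number of genes (log scale) by difference of covered share in points (second group minus first, trimmed lists, classes of 5 points) for the 5 comparisons. Lines mark gcm, gcm2 and repo, except for H3K27ac late minus early, where they had no peak after trimming and were not fitted. The genes lay at the low end for H3K27me3 late minus early (-68.5, -65.2 and -39.7 points), where the median gene had no early coverage and could not fall. They lay within the bulk of genes for H3K27ac degradation minus control, and repo lay toward the high end for Pho at 14.4 points.

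The Pho peaks did not settle on 1 position. The most lists that shared any base was 4 of 6 in each gene region. In gcm, a group of overlapping peaks from 4 lists reached from position -669 to 144, across the start, and at gcm2 one from 4 lists reached from -311 to 175. The groups with most lists, 5 each, lay inside gcm2 at 2164 to 3268 and inside repo at 1640 to 2695. Between gcm and gcm2, groups of overlapping peaks at 15305 to 17224 and at 18305 to 19823 bases from the gcm start held peaks of all 6 lists, and the second spans the CG4382 start. The first of these also overlapped H3K27ac peaks of 8 of 10 lists. Within it, 16 bases were shared by 5 of 6 Pho lists, and the stretch around them in at least 4 lists, chr2L:9597443-9597640, reads as follows on the plus strand, with matches in capitals.
Pho stretch between gcm and gcm2: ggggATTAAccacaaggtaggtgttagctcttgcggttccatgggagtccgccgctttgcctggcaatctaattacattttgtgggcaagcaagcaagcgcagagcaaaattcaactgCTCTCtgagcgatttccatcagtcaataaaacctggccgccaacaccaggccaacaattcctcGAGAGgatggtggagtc
It held 1 TTAAT match and 2 GAGAG matches. Of windows of that length directly upstream of genes, 56.0% held at least 1 TTAAT and 21.9% at least 1 GAGAG. It held no GCCAT, which 29.65% of those windows held. Of the 62 Pho peaks at the 3 genes, 40 (64.5%) held GCCAT, against 47.8% of all 323423 peaks in the Pho lists and 35.6% of upstream windows of matched lengths. By gene these were 12 of 17 peaks at gcm, 17 of 26 at gcm2 and 11 of 19 at repo. Merged over the 6 lists, the peaks formed 7, 8 and 6 sites, so the same sequence was counted more than once. The 47.8% was not matched for peak length, and the difference was not tested.

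Ubx peaks were found at the 3 genes in early lists, and among the late lists in 1. At gcm, a peak was present in early mesoderm list S (1 peak) and in early neuronal lists R (2) and S (4). At gcm2, peaks were present in early mesoderm lists R2 (4) and S (1), late mesoderm list R (1) and early neuronal lists R (4) and S (6). At repo, they were present in early mesoderm lists R (1), R2 (3) and S (1) and early neuronal lists R (2) and S (5). The late neuronal lists had none at any of the 3 genes, and these are the shortest lists, at 0.179 and 0.241 Mb.

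A gene was called bound in a group when every list of the group had a peak in its region. All 3 genes were bound in early neuronal nuclei, where 70.9% of all genes were. Only repo was bound in early mesoderm, where 8.2% of genes were. None was bound in late mesoderm or late neuronal nuclei, where 18.8 and 0.802% of genes were. The gene repo had a peak in every early and no late mesoderm list, as did 1.15% of genes. All 3 had a peak in every early and no late neuronal list, as did 63.8%. The reverse, every late and no early list, held for none of them (0.773% of genes in mesoderm and 0.00716% in neuronal nuclei). The early-only pattern at repo depended on the window. With the region begun 5 kb upstream, 7 of the 9 Ubx lists had a peak at repo against 5 before, so late lists were among them. None of the 3 genes had peaks in every list of 1 tissue and no list of the other at the same stage. Early, 0.0215% of genes had them in mesoderm alone and 5.78% in neuronal nuclei alone, and late, 14.8 and 0.0573%. Of 16 other glial genes, chosen by name, 2 were bound in early mesoderm, 8 in late mesoderm, 15 in early neuronal and 1 in late neuronal nuclei. Of 16 hemocyte genes the counts were 4, 10, 15 and 0.

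Covered shares by Ubx were small and did not separate the groups in a test. At gcm they were 0, 0 and 4.64% in early mesoderm (R, R2, S) and 5.25 and 12.01% in early neuronal nuclei. At gcm2 they were 0, 9.68 and 2.18% and then 5.60 and 23.7%, with 2.21 and 0% in late mesoderm. At repo they were 0.869, 23.8 and 1.16% and then 7.98 and 6.99%. Between tissues 2 contrasts and between stages 2 contrasts were tested at each gene, 12 tests in all, with an exact two-sided permutation test over lists. The lowest exact p was 0.2 (adjusted p = 0.8), for gcm between early tissues and for repo between mesoderm stages. The design could not go below 0.1 with 3 against 2 lists or 0.3333 with 2 against 2.

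The 35 Ubx peaks at the 3 genes had middling scores within their own lists, by the authors' columns. Their fold enrichment was 2.12 to 4.84 and their length 47 to 569 bases, with a median of 134. In the ranking of its own list, the median peak was matched or exceeded in score by 48.4% of peaks, 19 of the 35 were in the better-scored 50% of their list, and 2 ranked within the best 10%. These were the early mesoderm S peak at repo (2.27% of its list scored as high) and an early neuronal S peak at gcm2 from -1972 to -1681 (5.94%). When each list was cut to 936 peaks, the number in the shortest, that early mesoderm S peak at repo was the one that remained.

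Most Ubx peaks did not recur between lists. Overlapping peaks were merged over the 9 lists into 6 sites at gcm, 1 of them in more than 1 list, 13 at gcm2, 3 of them in more than 1 list, and 7 at repo, 2 of them in more than 1 list. The site with most lists was in repo, at positions 280 to 1027, where peaks of early mesoderm lists R2 (280 to 819), S (707 to 769) and R (809 to 855) and of early neuronal list R (825 to 1027) chained together, although no base was in more than 2 of them. A second repo site, at 1894 to 2472, held peaks of early mesoderm R2 and early neuronal R and S. At gcm the recurrent site lay just upstream of the start, where the early mesoderm S peak (-243 to -47) and an early neuronal S peak (-274 to -140) shared part of the promoter printed above.

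The part of the repo site from the start of the S peak to the end of the R peak, both of early mesoderm, is shown because it holds the best-ranked peak. It lies at chr3R:18236899-18237047, and all 149 bases are coding sequence of the first exon. It is written on the plus strand with matches in capitals.
repo Ubx stretch: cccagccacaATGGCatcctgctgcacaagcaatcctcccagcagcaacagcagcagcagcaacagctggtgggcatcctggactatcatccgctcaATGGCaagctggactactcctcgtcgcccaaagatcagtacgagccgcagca
It held 2 GCCAT matches on the reverse strand and no TTAAT, which 43.9% of windows of this length upstream of genes held. Of the 35 Ubx peaks at the 3 genes 7 (20%) held TTAAT, against 29.6% of all 186254 peaks in the Ubx lists and 39.2% of upstream windows of matched lengths. The 29.6% was not matched for peak length, and sequence in overlapping peaks was counted more than once. Many of the 35 peaks lay in coding sequence, unlike the upstream windows, and the difference was not tested. By place, 13 of the 35 peaks lay wholly upstream, 11 wholly in coding sequence and 5 wholly in an intron, all 5 of them in gcm2, and 6 crossed a boundary.

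Most Ubx bases of early mesoderm, and fewer of late mesoderm in 3 of 4 pairs of lists, lay inside H3K27me3. Over the 3 gene regions and the stretch between gcm and gcm2, the Ubx bases of lists R, R2 and S were inside H3K27me3 by 100, 99.1 and 100% in early list 1 and by 100, 96.6 and 92.5% in early list 2. They were inside H3K27ac by 36.2, 13.5 and 8.11% in early list 1 and by 0% in early list 2. In late mesoderm, Ubx list R was inside H3K27me3 by 45.7% in late list 2 and 28.1% in late list 3, and Ubx list S by 100 and 22.5%. These shares follow in part from the size of the domains, since H3K27me3 covered most of this sequence in the early lists and less of it in the late ones.

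The 16 other glial genes, among them the transcription factor genes pnt and ttk and the transporter gene Eaat1, and the 16 hemocyte genes, among them the GATA factor gene srp and the scavenger receptor gene crq, were set beside the 3 determinants. For H3K27me3 between stages, 5 of the 16 glial genes could be tested. No glial gene passed the limma threshold, 3 had late lists above the early ones and 0 had them below, against 11.9% of all genes above and 4.18% below, and the median difference was 3.20 points against 0.6 over all genes tested. The largest was at retn, a transcription factor gene, from 0.459 ± 0.0818% to 12.4 ± 7.04% (SD, n = 2 each, limma adjusted p = 0.412), followed by pnt from 0 to 3.79 ± 0.643%. Of 7 testable hemocyte genes 3 also lay higher in the late lists and 0 lower, with a median difference of 3.48 points, and srp went from 0 to 3.48 ± 0.979%. Most of these genes had no H3K27me3 in either early list after trimming and entered the fit through the late lists alone, so the direction of those was fixed by that filter and is no contrast with gcm, gcm2 and repo. The shares over all genes also turn round without trimming, to 1.11% above and 8.82% below. In the degradation comparisons no gene of either list passed the limma threshold for any mark. A single one, the glial gene bnb, had groups that did not overlap, for H3K27ac, at 1.005 ± 1.74% in the controls and 16.2 ± 13.2% in the degradation lists (SD, n = 3 each, limma adjusted p = 1). Over all genes tested, H3K27ac groups did not overlap at 0.897% (higher) and 0.501% (lower). The same shares were 0.185 and 0.309% for H3K27me3 and 6.03 and 3.62% for Pho.

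The profiles of gcm, gcm2 and repo over the 26 H3K27ac, H3K27me3 and Pho lists were set beside those of other genes. Genes whose region overlapped that of the member were left out when the nearest were taken. Likeness was the root mean square difference of covered share, in points, as deposited. The nearest genes to gcm were dmrt99B (10.2 points), the Pax gene gsb (10.3) and the homeobox gene lbe (10.5), against a median of 56.0 over all genes. The nearest to gcm2 were the zinc finger gene opa (6.21), the homeobox gene Ptx1 (6.90) and lbe (7.24), and the nearest to repo were the signalling gene hh (4.44), the T-box gene Doc2 (6.94) and the Pax gene gsb-n (7.41). Among all genes ranked by likeness to gcm, gcm2 came at place 11 and repo at place 37, and among those ranked by likeness to gcm2, repo came at place 22 and gcm at place 39. From repo, gcm2 came at place 39 and gcm at place 118. The lists share libraries and depth across genes, so these values are a description.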

How the data were processed

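The values were the peak lists of 35 immunoprecipitates, 1 list for each library. FastQC, Bowtie, MACS2 and the build dm6 are named per the submitters' processing notes. Versions and parameters are not given in the sources used here. Whether an input served as background is also not given. Each peak's fold, as deposited by the authors, is a ratio to its background within 1 library. The lists also hold −log10 values (p and q) deposited by the authors and a score deposited by the authors (10 times the −log10 q, cut to a whole number), and these were used only for ranking and filtering inside 1 list. The 5 combined Ubx lists were used as an alternative. Gene coordinates came from the Ensembl annotation of the same assembly, and its gene names were used as given.

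Covered shares were arcsine square-root transformed and compared by limma 3.58.1 in R 4.3.3 (trend option on, genes with any covered base in the comparison), with Benjamini-Hochberg adjustment and a threshold of 0.05. The test was also run on simulated data. There the SD of each gene was capped at the median SD, so that run cannot show how the test behaves on these lists. Ubx shares were tested by exact permutation over lists (scipy 1.17.1). The members and gene lists were chosen with earlier results of these data known. Named list genes were up to 3 in each direction with the largest difference among those past the threshold or, where none passed, among those whose groups did not overlap. Control and degradation lists share replicate numbers. Deviations of same-numbered lists correlated at 0.298 to 0.36 for H3K27me3 and 0.415 to 0.625 for H3K27ac, so these numbers were taken to pair the lists in an alternative fit with that block. The main fit, which gave the degradation values above, left the block out. The labels do not say that a replicate number marks a shared day or batch. Alternatives were the lists as deposited, other windows, better-scored peaks, all genes and leaving out each list.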

Additional observations from a re-analysis of the deposited data

How the results depend on the processing

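With replicate number as a block, the counts of genes called stayed at 0 for H3K27me3, H3K27ac and Pho between control and degradation, and the member differences kept their values, with limma adjusted p of 0.519, 0.621 and 0.519 at gcm, gcm2 and repo for H3K27me3, 0.963, 0.919 and 0.989 for H3K27ac, and 0.996, 0.996 and 0.96 for Pho. The block changed no call. For Pho, same-numbered lists deviated from their group means with correlations of -0.0146 to 0.00112, so they share only a number. For H3K27me3 between stages, genes called numbered 17 with the lists as deposited, 18 in the window of 1 kb to either side of the start and 34 with the better-scored 50% of peaks, all lower late, and from 7 to 3001 on leaving out each list. Testing all protein-coding genes could not be fitted there. Past the threshold came gcm2 in the start window (-76.5 points), and gcm (-54.3) and repo (-72.7) with the better-scored 50%. Leaving out each list gave -72.9 to -26.2 points at gcm, -77.2 to -34.0 at gcm2 and -59.9 to -29.3 at repo. Leaving out a list of 2 keeps 1, which is assumed to vary like the others. For H3K27ac between stages, 1 gene was called with all genes tested, and 0 to 2424 on leaving out each list (2414 higher and 10 lower without late list 2). For H3K27me3 under degradation, 5 genes were called lower with all genes tested, and leaving out each list gave -0.363 to 12.8 points at gcm2 and -0.779 to 15.4 at repo. The H3K27ac degradation differences changed sign readily. At gcm they were -13.0 points as deposited, -0.511 with 5 kb upstream and -14.8 with the better-scored 50%, and -1.503 to 2.69 on leaving out each list. At gcm2 they were 5.28 in the start window, 8.38 with the better-scored 50%, and -3.43 to 3.42 on leaving out each list. At repo they were -0.833 in the start window, -5.22 with the better-scored 50%, and -1.63 to 6.99 on leaving out each list. Pho differences reversed at gcm (-10.1 points as deposited) and gcm2 (-1.26 as deposited, -0.667 with the better-scored 50%), and ranged from -7.25 to 10.0 and from -1.20 to 6.81 on leaving out each list. Ubx lists with a peak fell to 0, 0 and 1 for gcm, gcm2 and repo when each list kept as many peaks as the shortest one, from 3, 5 and 5. They numbered 3 for gcm2 in the start window, 3 for repo with the better-scored 50%, and 3 and 2 of the 5 combined lists for gcm2 and repo. With 5 kb upstream they rose to 4 for gcm and 7 for repo. The cause of these changes was not tested. Of 230 alternative values, 185 were counted as unchanged in direction and side of the threshold. That count includes values that had no direction to keep. Among them are 9 at each gene for H3K27ac between stages, where the main difference was 0. Peak lists hold no read depth, so a missing peak sets no limit on binding.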
